A study of Mus musculus with 12 samples.

Results

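Slc6a2 and 7 further genes of peripheral neural signalling were described in bone of catalase knockout (KO) and wild-type (WT) mice after binge ethanol. The 8 genes are the noradrenaline transporter Slc6a2, the peptide Npy, the peptide receptors Vipr1, Vipr2 and Npy1r, the adrenergic receptors Adrb1 and Adra2a, and the sodium-activated potassium channel Kcnt1. They were taken as a named list and found by gene name and Ensembl ID among the 49315 genes of the count table, and all 8 passed the filter on low counts that left 18161 genes to test. Earlier results of these libraries were known when the 8 were chosen, and Slc6a2 and Kcnt1 had been named for their ethanol response, so the set counts as chosen by the ethanol differences in counts between these libraries, and those differences are given as a description.

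Bulk RNA sequencing was done on femoral shafts of male mice, in 4 groups of 3 libraries. The KO ethanol group (libraries 4 to 6) and the WT ethanol group (libraries 10 to 12) were gavaged at 12 weeks of age with 3, 3, 4 and 4.5 g of ethanol per kg body weight over 4 days, drawn from a 31.5% (v/v) solution. The KO PBS group (libraries 1 to 3) and the WT PBS group (libraries 7 to 9) received the same volumes of phosphate-buffered saline (PBS). KO mice were Cat -/-, lacking the enzyme that breaks down hydrogen peroxide, and WT mice were Cat +/+. Tissue was taken 6 h after the last gavage, and marrow was spun out of the bones before RNA isolation. Each library pools RNA of 2 mice, so that the spread between libraries is a spread between pools. Libraries held 19950222 to 28789308 counts.

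Noradrenaline from sympathetic nerve endings acts on alpha- and beta-adrenergic receptors and is cleared by reuptake through the Slc6a2 transporter. Sympathetic fibres also release neuropeptide Y, encoded by Npy, while vasoactive intestinal peptide (VIP) is known as a transmitter of fibres that reach the periosteum. In bone, beta-adrenergic signalling is best known for restraining osteoblasts and promoting osteoclast formation, and neuropeptide Y acts on osteoblasts through the Npy1r receptor.

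The upstream sequences of Vipr2 and Vipr1 are shown because these related receptors, which both bind VIP, had unlike values after ethanol, and that of Npy because it is the only peptide of the set. They are the 250 bases before each RefSeq start (GRCm38.p6, plus strand, 5′ to 3′), at chr12:116077476-116077725 for Vipr2, chr9:121642466-121642715 for Vipr1 and chr6:49822460-49822709 for Npy. Capitals mark the searched motifs wherever they occurred on either strand. These were TGACG (the half-site of the cAMP response element, to which CREB binds), GGGCGG (the GC box, bound by Sp factors) and TATAAA (the TATA box), and the glucocorticoid response element was searched as well.
Vipr2: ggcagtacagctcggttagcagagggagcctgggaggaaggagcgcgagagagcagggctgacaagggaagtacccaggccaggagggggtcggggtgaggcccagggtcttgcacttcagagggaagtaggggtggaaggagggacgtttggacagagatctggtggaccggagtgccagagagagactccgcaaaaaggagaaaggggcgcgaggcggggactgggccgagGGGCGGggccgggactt
Vipr1: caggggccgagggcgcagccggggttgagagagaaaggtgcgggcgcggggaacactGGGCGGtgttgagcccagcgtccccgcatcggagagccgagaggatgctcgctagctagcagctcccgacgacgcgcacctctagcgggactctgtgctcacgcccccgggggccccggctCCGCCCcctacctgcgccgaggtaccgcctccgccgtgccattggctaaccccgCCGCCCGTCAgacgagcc
Npy: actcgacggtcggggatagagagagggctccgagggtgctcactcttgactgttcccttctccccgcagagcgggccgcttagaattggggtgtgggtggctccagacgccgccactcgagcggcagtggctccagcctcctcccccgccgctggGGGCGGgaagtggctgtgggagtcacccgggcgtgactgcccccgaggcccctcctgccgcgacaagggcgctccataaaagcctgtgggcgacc
Vipr2 and Npy each held 1 GC box, and Vipr1 held 3 GC boxes and 1 TGACG on the minus strand, where it shares a base with the last GC box. Among the 6 of the 8 genes with a sequence in the table, 5 held GGGCGG, against 32.7% of all 32851 promoters of that length. TGACG stood in 3 of the 6, those of Vipr1, Adra2a and Adrb1, against 17.8% of all promoters. TATAAA stood in that of Adra2a, against 12.4% of all promoters, and the glucocorticoid response element in none of the 6, against 0.387% of all. The GC content of the window was 65.2% in Vipr2, 72.8% in Vipr1 and 69.2% in Npy.

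Catalase RNA itself served as the check that libraries labelled KO and WT differ. Since Cat RNA was lower in KO but still present, it cannot show that the enzyme is lacking. Cat averaged 71.5 ± 2.57 CPM (counts of a gene per 1e6 counts of its library) in KO ethanol and 67.4 ± 2.22 CPM in KO PBS, against 160 ± 14.4 CPM in WT ethanol and 151 ± 23.4 CPM in WT PBS (SD, n = 3 each). By edgeR's quasi-likelihood test with Benjamini-Hochberg adjustment, Cat in KO minus WT was at a log2 difference of -1.17 with PBS (adjusted p = 0.00201) and of -1.16 with ethanol (adjusted p = 0.00102). Libraries differed in muscle RNA: the summed share of 16 skeletal muscle genes ran from 0.143% to 3.86% of counts, and was highest in libraries 12 (WT ethanol) and 8 and 9 (WT PBS). The 12 osteoblast genes, which mark the labelled tissue, summed to 12363 CPM or more in every library. In bulk tissue, fewer cells of a type and less RNA per cell cannot be told apart.

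After ethanol, Slc6a2 was lower and Kcnt1 higher in both genotypes, Vipr2 was higher, and Npy was lower. Of the 8 genes, 3 were called between KO ethanol and KO PBS at an adjusted p under 0.05 (Slc6a2 lower, Vipr2 and Kcnt1 higher), where 1.87% of all tested genes were called, 0.964% as higher and 0.903% as lower. Between WT ethanol and WT PBS, 2 were called (Slc6a2 lower, Kcnt1 higher), where 1.26% of all genes were, 0.556% as higher and 0.705% as lower. With the ethanol effect averaged over both genotypes, 4 were called (Slc6a2 and Npy lower, Vipr2 and Kcnt1 higher), where 10.8% of all genes were, 5.02% as higher and 5.81% as lower. The median log2 difference of the 8 genes was 0.17 in KO and 0.19 in WT, against 0.00015 and -0.018 over all tested genes. Nothing is read from these counts, since the ethanol response was known when the genes were picked. The same holds for ethanol calls of the 8 genes kept or lost when a library was left out. Those describe the fit and are no test of the response.

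**Figure D1:**
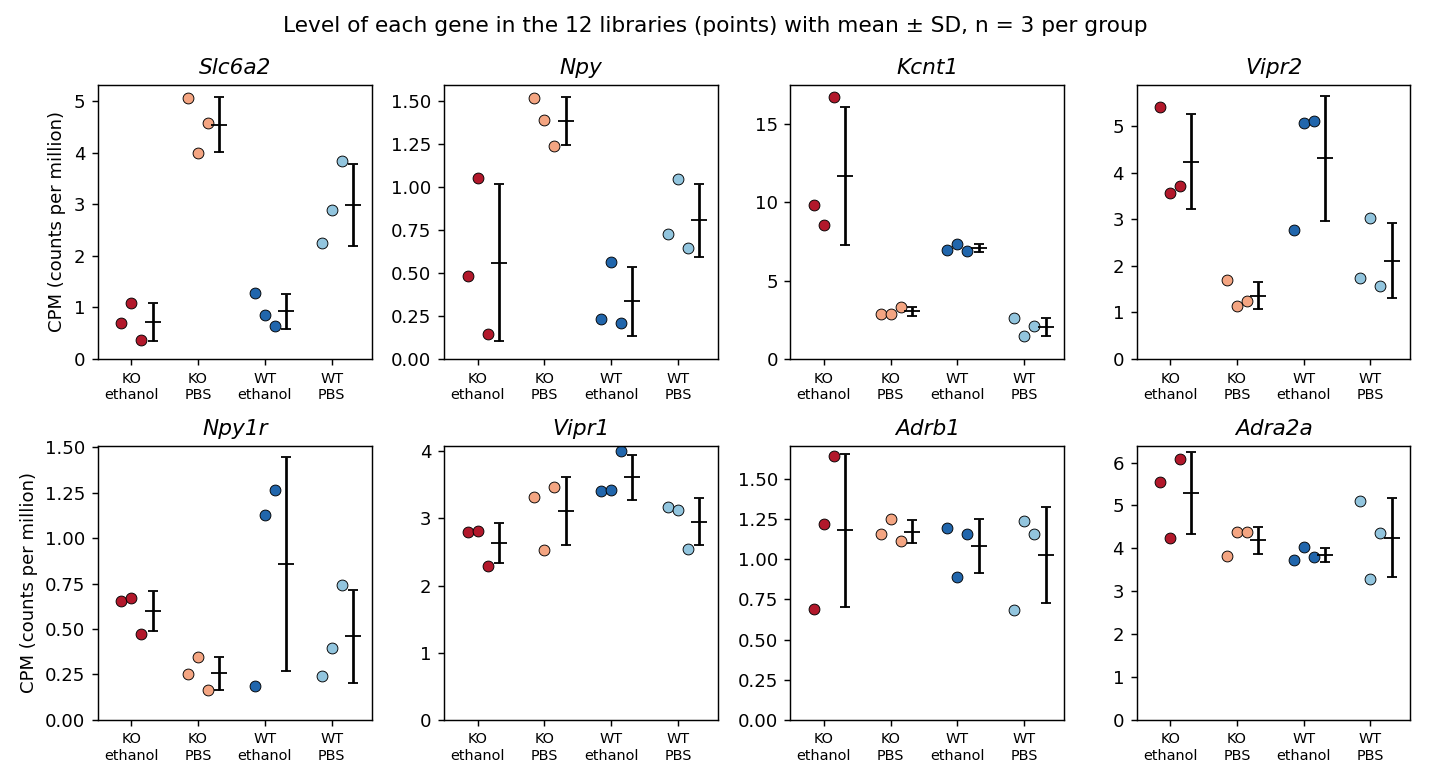
Level in CPM of the 8 genes in each of the 12 libraries (points), with the mean and SD of each group beside them (n = 3), each panel on its own linear axis from 0. The KO ethanol points of Slc6a2 lie between 0.365 and 1.09 CPM, below the KO PBS points at 3.99 to 5.06 CPM, and those of Kcnt1 lie between 8.56 and 16.7 CPM, above the KO PBS points at 2.88 to 3.34 CPM.

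Slc6a2 (ENSMUSG00000055368, chr8:92960079-93001667 on the plus strand of GRCm38, union exon length 6290 bases) encodes the transporter that returns released noradrenaline to the nerve ending. Its level was 0.690, 1.09 and 0.365 CPM in KO ethanol, against 5.06, 3.99 and 4.58 CPM in KO PBS. WT ethanol libraries were at 1.29, 0.844 and 0.631 CPM, against 2.25, 2.88 and 3.84 CPM in WT PBS. In each genotype the ethanol libraries lay below the PBS libraries, and KO PBS lay wholly above WT PBS. Groups lay apart in the lower direction for 16% of all genes between KO ethanol and KO PBS and for 9.06% between WT ethanol and WT PBS. For 8.98% of all genes, KO PBS lay above WT PBS. The log2 difference was -2.67 (SE 0.35) in KO, a fold of 0.157, and -1.68 (SE 0.35) in WT, a fold of 0.312. The KO call held with each of the 12 libraries left out in turn, at -3.09 to -2.36. The WT call was lost without any one of libraries 1, 2, 3, 4, 8, 9, 10, 11 or 12, while the difference stayed between -2.0 (without library 10) and -1.45 (without library 9).

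Npy (ENSMUSG00000029819, chr6:49822710-49829507, plus strand, 566 bases of exon) encodes neuropeptide Y, which sympathetic neurons release with noradrenaline and which megakaryocytes of rodents also make. Its counts were low, at 4 to 42 per library. Its level was 0.483, 1.05 and 0.146 CPM in KO ethanol, against 1.52, 1.39 and 1.24 CPM in KO PBS. The WT ethanol libraries had 0.230, 0.563 and 0.210 CPM, against 0.724, 1.04 and 0.648 CPM in WT PBS. Each ethanol group lay below the PBS group of its genotype, as did 16% of all genes in KO and 9.06% in WT. KO PBS lay above WT PBS, as for 8.98% of all genes. The log2 differences were -1.33 (SE 0.49) in KO and -1.23 (SE 0.58) in WT, neither of them called. The averaged difference was -1.28 (SE 0.38). It was called with all 12 libraries, but the call was lost without any one of the libraries other than 5 and 11, while the 12 fits ranged from -1.67 to -1.05.

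Vipr2 (ENSMUSG00000011171, chr12:116077726-116146261, plus strand, 4463 bases of exon) encodes a Gs-coupled receptor for VIP and for the related peptide PACAP. Its level was 5.41, 3.57 and 3.72 CPM in KO ethanol, against 1.70, 1.14 and 1.24 CPM in KO PBS. WT ethanol gave 2.76, 5.07 and 5.10 CPM, against 1.73, 3.03 and 1.57 CPM in WT PBS. The KO groups lay apart, as did 16.3% of all genes in the higher direction, while in WT library 10 (ethanol) lay below library 8 (PBS). The log2 difference was 1.64 (SE 0.31) in KO, a fold of 3.11, and 1.03 (SE 0.31) in WT, a fold of 2.05, the WT value not called. The KO call was lost without library 1 (1.83), 2 (1.52), 3 (1.57), 4 (1.42) or 6 (1.72). The averaged difference of 1.33 (SE 0.22) was called with any one library left out. An annotated antisense gene, Gm20658, lies within Vipr2 on the other strand, shares no exon base with it and had 658 counts in all 12 libraries together.

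Vipr1 (ENSMUSG00000032528, chr9:121642716-121672954, plus strand, 5800 bases of exon) encodes the second receptor shared by VIP and PACAP. Its level was 2.79, 2.81 and 2.30 CPM in KO ethanol, against 3.32, 2.53 and 3.47 CPM in KO PBS. The levels in WT ethanol were 3.41, 3.42 and 4.00 CPM, against 3.18, 3.13 and 2.54 CPM in WT PBS. The KO groups overlapped, and the WT ethanol libraries lay above the WT PBS libraries, as did those of 7.32% of all genes. The log2 differences were -0.24 (SE 0.17) in KO and 0.29 (SE 0.17) in WT, and the averaged one was 0.026 (SE 0.12), none of them called. Within 2 SE the averaged difference lay between -0.21 and 0.26, against 0.89 to 1.78 for Vipr2.

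Npy1r (ENSMUSG00000036437, chr8:66697192-66706792, plus strand, 3454 bases of exon), which encodes the Y1 receptor for neuropeptide Y, had 4 to 24 counts per library. Its level was 0.655, 0.672 and 0.474 CPM in KO ethanol, against 0.253, 0.347 and 0.165 CPM in KO PBS. WT ethanol libraries held 0.184, 1.13 and 1.26 CPM, against 0.241, 0.397 and 0.740 CPM in WT PBS. The KO groups lay apart, as did 16.3% of all genes in the higher direction. In WT, library 10 was the lowest of all 6 libraries, and it also had the smallest share of muscle RNA, at 0.143% of counts. Library 7, the next lowest in Npy1r, had 0.344%, and the other WT libraries had 2% to 3.86%. The cause of this order was not tested. The log2 differences were 1.20 (SE 0.61) in KO, 0.89 (SE 0.58) in WT and 1.05 (SE 0.42) averaged, none of them called. The averaged one was called when library 10 was left out, at 1.29.

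Neither noradrenaline receptor of the set was called between ethanol and PBS in KO, in WT or averaged. Adrb1 (ENSMUSG00000035283, chr19:56722199-56733113, plus strand, 3382 bases of exon) encodes the beta-adrenergic receptor that dominates in heart. Its level was 0.690, 1.22 and 1.64 CPM in KO ethanol, against 1.16, 1.25 and 1.11 CPM in KO PBS. WT ethanol was at 1.20, 0.891 and 1.16 CPM, against 0.684, 1.24 and 1.16 CPM in WT PBS. Both pairs of groups overlapped, with log2 differences of 0.0059 (SE 0.31) in KO and 0.085 (SE 0.33) in WT. Within 2 SE the averaged difference lay between -0.40 and 0.49.

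Adra2a (ENSMUSG00000033717, chr19:54044151-54048982, plus strand, 4832 bases of exon) encodes the Gi-coupled receptor that curbs noradrenaline release at nerve endings. Its level was 5.55, 4.24 and 6.09 CPM in KO ethanol, against 3.83, 4.37 and 4.38 CPM in KO PBS. In WT ethanol it was 3.73, 4.03 and 3.79 CPM, against 5.11, 3.28 and 4.35 CPM in WT PBS. Both pairs overlapped, with log2 differences of 0.34 (SE 0.18) in KO and -0.14 (SE 0.18) in WT. Within 2 SE the averaged difference lay between -0.16 and 0.35.

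Kcnt1 (ENSMUSG00000058740, chr2:25863734-25918273, plus strand, 9499 bases of exon) encodes a potassium channel opened by intracellular sodium, known from neurons. Its level was 9.83, 8.56 and 16.7 CPM in KO ethanol, against 2.89, 2.88 and 3.34 CPM in KO PBS. In WT ethanol it was 6.95, 7.36 and 6.89 CPM, against 2.61, 1.49 and 2.08 CPM in WT PBS. In each genotype the ethanol libraries lay above the PBS libraries, each KO group lay above the WT group of the same gavage, and library 6 was the highest. Ethanol lay above PBS for 16.3% of all genes in KO and for 7.32% in WT. KO lay above WT for 8.98% of all genes under PBS and for 7.12% under ethanol. The log2 difference was 1.95 (SE 0.25) in KO, a fold of 3.86, and 1.77 (SE 0.26) in WT, a fold of 3.41. The KO call held with each library left out in turn, at 1.60 to 2.13. The WT call was lost without library 9 or without library 10, at 1.78 in both cases.

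**Figure D2:**
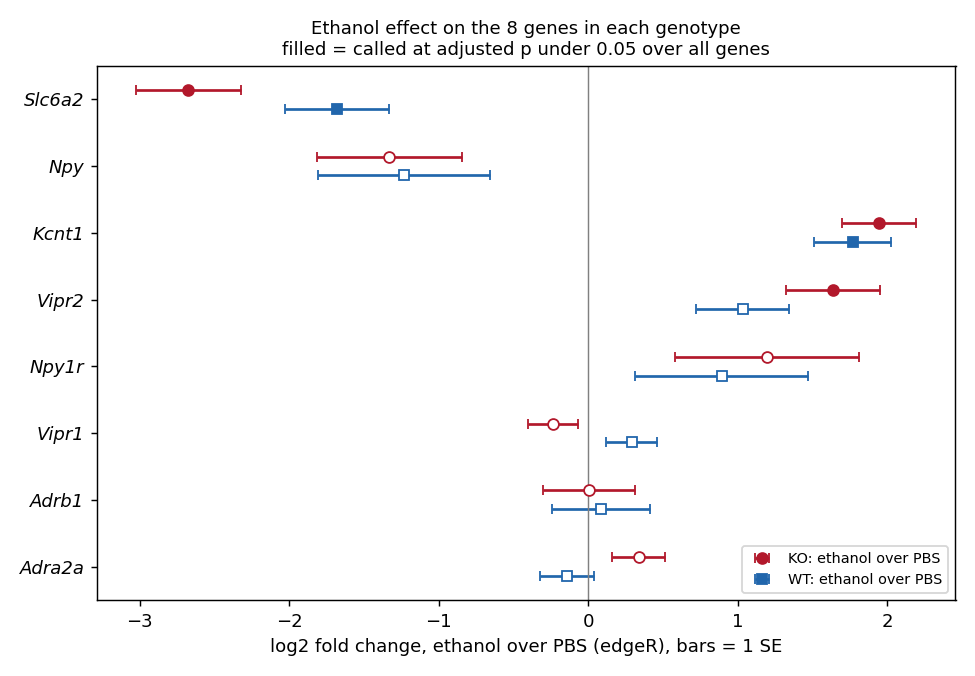
Log2 fold change of the 8 genes, ethanol over PBS, within KO (circles) and within WT (squares), with bars of 1 SE and filled symbols where the gene was called over all tested genes. Slc6a2 lies at -2.67 in KO and -1.68 in WT, Kcnt1 at 1.95 and 1.77, and Vipr1, Adrb1 and Adra2a lie near 0 in both genotypes.

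Per kilobase of exon, the order of the genes was not the same in the 4 groups. In KO ethanol the mean levels were 1.23 CPM per kb for Kcnt1, 1.10 for Adra2a, 0.988 for Npy and 0.949 for Vipr2, then 0.454 for Vipr1, 0.350 for Adrb1, 0.174 for Npy1r and 0.114 for Slc6a2. In WT PBS they were 1.42 CPM per kb for Npy, 0.879 for Adra2a, 0.509 for Vipr1, 0.476 for Slc6a2 and 0.473 for Vipr2, then 0.304 for Adrb1, 0.217 for Kcnt1 and 0.133 for Npy1r. Kcnt1 thus stood first of the 8 in KO ethanol and seventh in WT PBS. Neighbours in this order differed by more than the larger of their SDs only between Vipr2 and Vipr1, Adrb1 and Npy1r, and Npy1r and Slc6a2 in KO ethanol, and only between Npy and Adra2a, Adra2a and Vipr1, and Kcnt1 and Npy1r in WT PBS.

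Genotype comparisons gave no call among the 8 genes. Under PBS, Slc6a2 differed by 0.60 on the log2 scale (KO minus WT, SE 0.31, adjusted p = 0.605), Npy by 0.78 (SE 0.47, adjusted p = 0.615), Kcnt1 by 0.55 (SE 0.26, adjusted p = 0.605) and Vipr2 by -0.62 (SE 0.32, adjusted p = 0.605). The KO PBS libraries of Slc6a2, Npy and Kcnt1 lay above the WT PBS libraries, which 8.98% of all genes did, and 0 of the 8 lay apart in the lower direction, against 5.16% of all genes. The other 4 genes had adjusted p from 0.678 to 0.975. In this comparison edgeR called 0 of the 8, 0 had an unadjusted p under 0.05, and DESeq2 and limma-voom called 0. Of all 18161 tested genes 0.011% were called, and 1350 had an unadjusted p under 0.05.

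Under ethanol, KO minus WT, Kcnt1 differed by 0.73 (SE 0.24), Adra2a by 0.46 (SE 0.18) and Vipr1 by -0.45 (SE 0.17), each with an adjusted p of 0.820. Kcnt1 and Adra2a lay apart in the higher direction, as did 7.12% of all genes, and Vipr1 in the lower direction, as did 4.04%. Slc6a2 differed by -0.39 (SE 0.38, adjusted p = 0.831), Npy by 0.69 (SE 0.59, adjusted p = 0.827) and Vipr2 by -0.022 (SE 0.30, adjusted p = 0.990), while Npy1r and Adrb1 had adjusted p of 0.845 and 0.942. Here edgeR called 0 of the 8, 3 had an unadjusted p under 0.05, and DESeq2 and limma-voom called 0. Of all 18161 tested genes 0.011% were called, and 1050 had an unadjusted p under 0.05.

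Whether ethanol acted differently in KO and WT was tested as the difference of the log2 differences, KO minus WT, on the same 12 libraries. It was -0.99 for Slc6a2 (SE 0.49), with bounds at 2 SE of -1.98 and -0.0073. Its unadjusted p by edgeR's quasi-likelihood test was 0.0675, so bounds at 2 SE are not a test at 0.05. For Vipr1 the difference of the log2 differences was -0.53 (SE 0.24), from -1.0 to -0.050. For Adra2a it was 0.48 (SE 0.25), from -0.024 to 0.99, and for Vipr2 0.60 (SE 0.44), from -0.27 to 1.48. For Kcnt1 it was 0.18 (SE 0.35), for Npy -0.095 (SE 0.81), for Npy1r 0.30 (SE 0.84) and for Adrb1 -0.079 (SE 0.45). All 8 had an adjusted p of 1.0. EdgeR called 0 of the 8, 1 (Vipr1) had an unadjusted p under 0.05, DESeq2 and limma-voom called 0, and edgeR called 0% of all 18161 tested genes, of which 359 had an unadjusted p under 0.05.

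The gene lists from here on were also chosen with earlier results of these data known, so their ethanol calls are given as a description. In the rest of the noradrenaline pathway, the synthesis enzymes Th and Dbh gave few or no counts. Ddc and Gch1 of the same list averaged 0.917 and 46.5 CPM over the 12 libraries. Th, the rate-limiting enzyme of catecholamine synthesis, had 0 counts in all libraries, and Dbh, which makes noradrenaline from dopamine, had 2 in all. A count of 0 allows up to 3 counts, or 0.103 to 0.158 CPM by library, a limit that covers counting error only. Of 19 genes for synthesis, storage, uptake and breakdown, 12 were tested, and with averaged genotypes 2 rose and 0 fell. Of all tested genes, 5.02% were called as higher and 5.81% as lower in that comparison. Slc18a2, the vesicular monoamine transporter, rose by 0.29 (SE 0.064, adjusted p = 0.0159), at 22.4 ± 2.46 CPM in KO ethanol, 18.3 ± 0.855 CPM in KO PBS, 21.0 ± 0.878 CPM in WT ethanol and 17.2 ± 1.20 CPM in WT PBS (SD, n = 3 each). Slc22a3, a low-affinity transporter that takes up noradrenaline outside neurons, rose by 0.47 (SE 0.086, adjusted p = 0.00720), at 12.1 ± 0.611 CPM in KO ethanol, 8.67 ± 0.856 CPM in KO PBS, 11.8 ± 1.34 CPM in WT ethanol and 8.66 ± 1.02 CPM in WT PBS. Within each genotype edgeR called 0 of the 12. There, 3 in KO and 2 in WT had an unadjusted p under 0.05, DESeq2 called 1 in each, and limma-voom called 1 in KO and 0 in WT.

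Per kilobase of exon over the 12 libraries, Adra2a was at 0.910 ± 0.168 CPM per kb and Adrb1 at 0.330 ± 0.0772 CPM per kb (SD, n = 12), against 0.189 ± 0.0810 CPM per kb for Adra2c, another receptor of the alpha-adrenergic family.

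Of the VIP and PACAP system, the receptor Adcyap1r1, which prefers PACAP, rose in KO by 1.46 (SE 0.30, adjusted p = 0.0339). It averaged 6.47 ± 2.56 CPM in KO ethanol, 2.35 ± 0.376 CPM in KO PBS, 4.06 ± 0.817 CPM in WT ethanol and 1.92 ± 0.628 CPM in WT PBS. In WT the difference was 1.07 (SE 0.31, adjusted p = 0.118), and averaged it was 1.27 (adjusted p = 0.00506). The KO call was lost without library 1, 2, 3, 6 or 11, at 1.09 to 1.60 (the lowest without library 6). Its ligands gave few counts: Adcyap1 (PACAP) had 0 in all libraries and Vip had 43, at most 7 in one. Of the NPY family, Pyy, Npy2r and Npy5r had 0 counts in all libraries, and Dpp4, the peptidase that trims neuropeptide Y, averaged 0.11 higher after ethanol (SE 0.14, adjusted p = 0.680).

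Partners downstream of these receptors were tested as 23 genes for G proteins, adenylyl cyclases and receptor kinases, of which 3 rose and 1 fell with averaged genotypes. In that comparison 5.02% of all tested genes were called as higher and 5.81% as lower. Gnai1, an inhibitory G protein subunit, fell by 1.31 in KO (SE 0.14, adjusted p = 0.00304) and by 0.86 in WT (SE 0.14, adjusted p = 0.0227). Its level was 14.3 to 20.4 CPM in KO ethanol, 39.0 to 45.8 CPM in KO PBS, 18.2 to 22.6 CPM in WT ethanol and 32.5 to 42.1 CPM in WT PBS. Gnao1, the G protein subunit abundant in neurons, rose in WT by 0.76 (SE 0.16, adjusted p = 0.0479), at 16.1 ± 1.01 CPM in WT ethanol and 9.51 ± 2.57 CPM in WT PBS. Grk5, a kinase that desensitises receptors, rose in WT by 0.40 (SE 0.075, adjusted p = 0.0329), and Adcy7, an adenylyl cyclase, rose by 0.32 averaged (SE 0.083, adjusted p = 0.0315). The WT call was lost for Gnai1 without library 2, 9 or 10 (-0.86 to -0.75), for Gnao1 without any one library other than 9 (0.64 to 1.0 over the 12 fits), and for Grk5 without library 1, 2, 3, 4, 8, 9, 10 or 11 (0.37 to 0.44 over the 12 fits). That of Adcy7 was lost without library 1, 2, 3, 4, 5, 6 or 10 (0.25 to 0.38 over the 12 fits).

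Channels related to Kcnt1 showed no call. Of 6 tested channels, edgeR called 0 in KO, in WT and averaged, 0 had an unadjusted p under 0.05 in these 3 comparisons, and DESeq2 and limma-voom called 0. Kcnt2, the nearest relative of Kcnt1, averaged 5.68 ± 1.40 CPM in KO ethanol, 6.43 ± 0.597 CPM in KO PBS, 4.97 ± 1.20 CPM in WT ethanol and 5.78 ± 0.0151 CPM in WT PBS. Among 4 tested cholinergic genes, the muscarinic receptor Chrm3 rose by 0.56 averaged (SE 0.14, adjusted p = 0.0239), a call lost without library 1, 2, 5, 6, 9 or 10 (0.50 to 0.64 over the 12 fits). Among 15 tested neurotrophin and axon guidance genes, Ret, the receptor subunit for GDNF-family ligands, rose by 0.56 averaged (SE 0.16, adjusted p = 0.0494). That call was lost without any one library other than 4 and 9 (0.48 to 0.68 over the 12 fits). Chrm3 and Ret were the only averaged calls of their lists, where 10.8% of all tested genes were called.

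**Figure D3:**
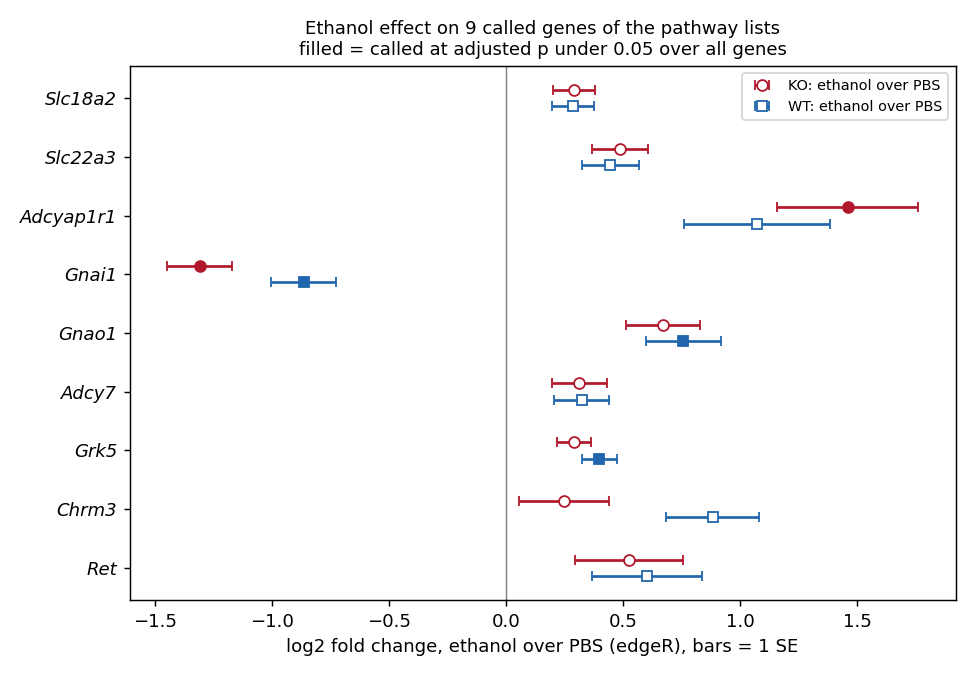
Log2 fold change, ethanol over PBS, of 9 genes of the pathway lists called in any comparison, within KO (circles) and within WT (squares), with bars of 1 SE and filled symbols where called within that genotype. Gnai1 is the only gene left of 0, at -1.31 in KO and -0.86 in WT, and Adcyap1r1 lies farthest right, at 1.46 and 1.07.

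Markers of nerve gave few counts. The summed level of 14 neuron and axon genes, of which 6 were tested, was 12.7 to 16.5 CPM in KO ethanol, 15.9 to 16.2 CPM in KO PBS, 13.8 to 16.8 CPM in WT ethanol and 13.3 to 18.9 CPM in WT PBS. Tubb3, a tubulin of neurons, fell in KO by 1.37 (SE 0.22, adjusted p = 0.0113, lost without library 3 at -1.23), at 1.28 ± 0.350 CPM in KO ethanol and 3.32 ± 0.572 CPM in KO PBS. Of the 6 tested genes, 2 lay above and 4 below 0 in KO, with a median log2 difference of -0.074. In WT, 4 lay above and 2 below 0, with a median of 0.076. The synaptic genes Snap25 and Syt1 reached at most 5 and 2 counts in a library. The 12 Schwann cell genes summed to 156 to 164 CPM in KO ethanol, 149 to 153 CPM in KO PBS, 161 to 167 CPM in WT ethanol and 149 to 157 CPM in WT PBS. EdgeR called 0 of the 11 tested in KO and in WT, where 2 and 1 had an unadjusted p under 0.05 and DESeq2 and limma-voom called 0.

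All 12 osteoblast genes had a log2 difference below 0 in both genotypes. In KO edgeR called 3 of them as lower (Runx2, Phospho1 and Pth1r), where 0.903% of all tested genes were called as lower. There, 11 of the 12 had an unadjusted p under 0.05, DESeq2 called 11 and limma-voom 5. In WT edgeR called 0, while 5 had an unadjusted p under 0.05, DESeq2 called 3 and limma-voom 0. With averaged genotypes 8 fell, where 5.81% of all tested genes were called as lower. Among the 8 were Alpl, lower by 0.84 (SE 0.15, adjusted p = 0.00952), and Phospho1, lower by 0.65 (SE 0.098, adjusted p = 0.00278), both mineralization enzymes. The averaged call was lost for Runx2 without library 6, for Sp7 without library 1, 2, 3 or 9, for Bglap2 without any one library other than 5, 10 and 12, and for Col1a1 without any one library other than 5. The KO calls of Runx2 and Phospho1 were lost without library 1, 2, 3, 4 or 6, and that of Pth1r without any one library other than 11 and 12. The median log2 difference of the 12 was -0.95 in KO and -0.53 in WT. The summed level of the 12 was 19671, 26277 and 12363 CPM in KO ethanol, against 36185, 40144 and 43690 CPM in KO PBS. In WT ethanol it was 25660, 23256 and 13191 CPM, against 25390, 26361 and 32302 CPM in WT PBS. The order of the libraries by this sum was their order by Slc6a2 within KO ethanol, within WT ethanol and within WT PBS, but not within KO PBS.

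The fold of Slc6a2 was 0.157 in KO and 0.312 in WT, beside a ratio of the mean osteoblast sums, ethanol over PBS, of 0.486 in KO and 0.739 in WT. At like sums, libraries 5 (KO ethanol) and 10 (WT ethanol) had 1.09 and 1.29 CPM of Slc6a2, against 2.25 and 2.88 CPM in libraries 7 and 8 (WT PBS). The part of the osteoblast markers in the Slc6a2 result was not tested.

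**Figure D4:**
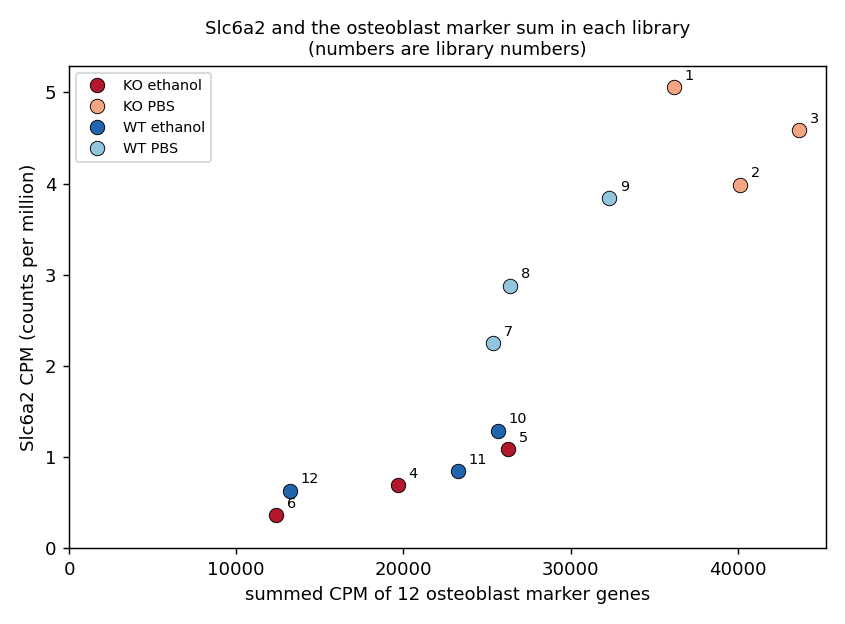
Slc6a2 in CPM against the summed CPM of 12 osteoblast marker genes, 1 point for each of the 12 libraries, labelled by library number and coloured by group. The ethanol libraries lie at 0.365 to 1.29 CPM of Slc6a2 over sums of 12363 to 26277 CPM, and the PBS libraries at 2.25 to 5.06 CPM.

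In the other lists of bone and blood cells, 1 or 2 genes were called. Of all tested genes, 1.87% were called in KO, 1.26% in WT and 10.8% averaged. Among 10 osteoclast genes, Calcr, the calcitonin receptor, rose in KO by 1.62 (SE 0.29, adjusted p = 0.0200, lost without library 1, 2 or 6) and in WT by 2.33 (SE 0.30, adjusted p = 0.0109). Ocstamp, which acts in osteoclast fusion, rose by 0.74 averaged (SE 0.19, adjusted p = 0.0294, lost without library 3, 4, 5, 6, 8, 9 or 10). In WT, 8 of the 10 had an unadjusted p under 0.05, and DESeq2 called 6 and limma-voom 1. The sum of the list in ethanol over PBS was 1.08 in KO and 1.32 in WT. Among 9 monocyte and macrophage genes, Cd14, a lipopolysaccharide co-receptor, rose in KO by 1.20 (SE 0.15, adjusted p = 0.00535) and in WT by 1.12 (SE 0.15, adjusted p = 0.0109), and the sum of the list was 1.05 and 1.08 times that of PBS. The monocyte and macrophage sum was 1470 CPM in library 6, which had the highest Kcnt1, and as high in library 10, with 6.95 CPM of Kcnt1. The neutrophil sum was 27456 CPM in library 6 and highest, at 40453 CPM, in library 8, which had the lowest Kcnt1. The part of these cells in the Kcnt1 result was not tested. Of 8 osteocyte genes Phex, an endopeptidase of phosphate control, fell by 0.70 averaged (SE 0.14, adjusted p = 0.0116), and of 10 neutrophil genes Mmp8, a collagenase, rose by 0.42 averaged (SE 0.11, adjusted p = 0.0315, lost without library 1, 2, 3, 5, 6, 7, 9 or 12).

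The remaining 8 marker lists, for smooth muscle and pericytes, endothelium, skeletal muscle, marrow stroma, megakaryocytes, T and NK cells, B cells and erythroid cells, had no gene called by edgeR in KO, in WT or averaged. An unadjusted p under 0.05 was found for 0 of these genes in KO, 2 in WT and 3 averaged. DESeq2 and limma-voom called 0 in KO and in WT, and in the averaged comparison DESeq2 called 1, in the smooth muscle list, and limma-voom 0. The 8 megakaryocyte genes, listed because those cells can make neuropeptide Y, summed to 1826 to 2370 CPM in KO ethanol, 2174 to 2306 CPM in KO PBS, 1357 to 1927 CPM in WT ethanol and 1548 to 2280 CPM in WT PBS.

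**Figure D5:**
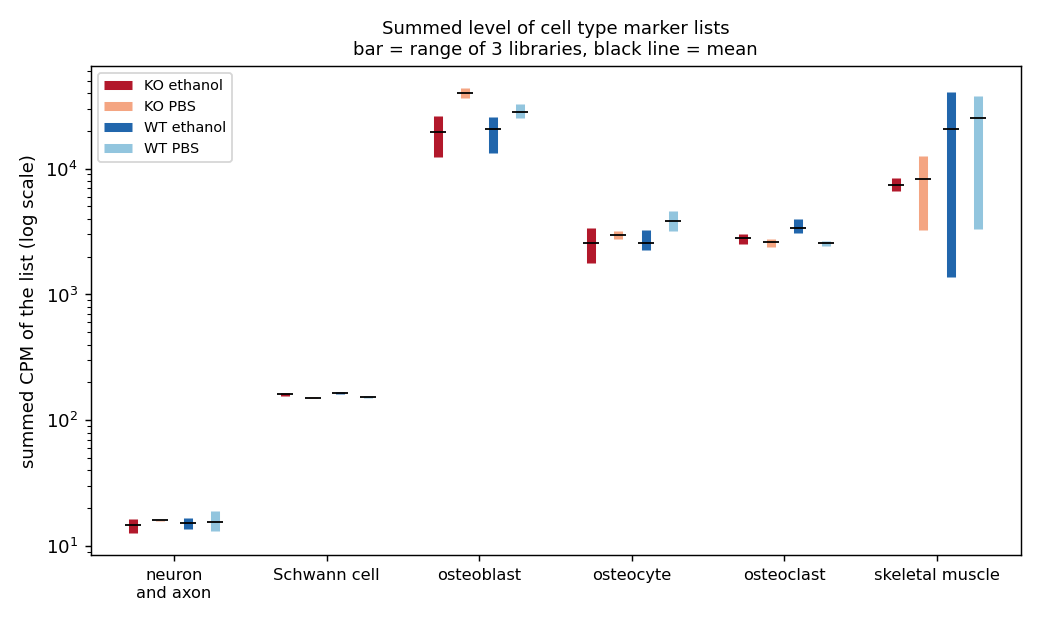
Summed CPM of 6 marker lists (log axis), with a bar from the lowest to the highest library of each group and a tick at the mean. The osteoblast bars of KO ethanol (12363 to 26277 CPM) and KO PBS (36185 to 43690 CPM) lie apart, the neuron and Schwann cell bars cover narrow ranges, and the skeletal muscle bars of WT are the widest, up to 40492 CPM.

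Without the 3 libraries richest in muscle RNA, 3 of the 8 genes were called in KO, 0 in WT and 3 averaged. In WT, which kept 2 ethanol libraries and 1 PBS library, Slc6a2 was then at -1.06 and Kcnt1 at 1.47. The 1 remaining WT PBS library is there assumed to vary like the other groups.

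Across all 12 libraries, the genes whose log2 CPM ran most like that of each gene were ranked by Pearson's r among 13452 genes, as a description over libraries that share groups and gavage. Slc6a2 ran most like Lman1 (r = 0.983) and Kdelr3 (r = 0.982), which encode cargo and retrieval receptors of the early secretory pathway, and Zbtb7c (r = 0.979). Kdelr3 was at 5.43 to 12.1 CPM in KO ethanol, 21.8 to 26.8 CPM in KO PBS, 7.0 to 11.3 CPM in WT ethanol and 16.2 to 23.8 CPM in WT PBS. Kcnt1 ran most like Adap2 (r = 0.980), Irs2 (r = 0.979), an adaptor of the insulin receptor, and Thbd (r = 0.976), the thrombin-binding thrombomodulin. Irs2 was at 48.2 to 58.8 CPM in KO ethanol, 38.8 to 39.9 CPM in KO PBS, 47.4 to 50.7 CPM in WT ethanol and 33.9 to 38.5 CPM in WT PBS.

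For Vipr2 the closest were AI987944 (r = 0.936), Ppt2 (r = 0.932), a lysosomal thioesterase, and Aifm2 (r = 0.921), an oxidoreductase that guards against lipid peroxidation. Aifm2 was at 21.2 to 22.7 CPM in KO ethanol, 13.6 to 15.4 CPM in KO PBS, 19.4 to 26.9 CPM in WT ethanol and 14.6 to 17.2 CPM in WT PBS. The highest r was 0.897 for Adra2a (Tmem129), 0.874 for Vipr1 (Zfp947) and 0.765 for Adrb1 (Crbn). Npy and Npy1r, with a mean below 1 CPM, were not ranked.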

How the data were processed

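Femoral shaft RNA of 12 libraries was sequenced. Reads were handled with Trimmomatic 0.36, STAR 2.5.2b and featureCounts of Subread 1.5.2 on GRCm38, per the submitters' processing notes; no source used here gives the strand setting or annotation release. The authors deposited raw counts for 49315 genes and a normalized signal table for 17408 genes, in which each library's counts are divided by 1 factor, as checked on the files. Symbols came from that table for 17391 genes and from GENCODE M21 otherwise.

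Raw counts were tested with edgeR 4.0.16 (quasi-likelihood, TMM, 1 coefficient per group over all 12 libraries, 8 residual degrees of freedom) in R 4.3.3. Genes passed edgeR's filter (minimum count 10, total 15), and Benjamini-Hochberg adjustment ran over 18161 genes, with calls at 0.05. CPM use TMM-scaled library sizes. P-values measure the spread between pools. Depth of 19950222 to 28789308 counts limits Npy and Npy1r most.

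The 8 genes and the 23 gene lists were chosen with earlier results of these data known. Named were the 8 genes, list genes called in any comparison or high in level, and the 3 genes most alike in pattern. Alternatives were DESeq2 1.42.0, limma 3.58.1 (voom, and trend on the deposited normalized signal plus 1), RLE scaling, 2 other filters, only the groups compared, a muscle covariate, the fit without the 3 muscle-rich libraries, and each library left out. Promoters are RefSeq's (GRCm38.p6), with 6 of the 8 genes matched by symbol. Some genes of the lists are not reported here.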

Additional observations from a re-analysis of the deposited data

How the results depend on the processing

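Of 410 values of the 8 genes under 9 alternatives, 387 kept their direction and side of the threshold, 9 lost a call, 1 gained one and 13 turned sign. The 13 are differences near 0 in the fit of the report, or those of Npy1r, which had few counts. Adrb1 in KO was -0.090 by limma-voom and -0.069 by limma-trend. Vipr2 under ethanol (KO minus WT) was 0.024 by limma-voom, and Adra2a under PBS was 0.0090 by limma-trend. The Npy1r differences were not near 0 in the fit of the report. There KO minus WT was -0.80 under PBS and -0.50 under ethanol, and the difference of ethanol effects was 0.30. With the muscle covariate Npy1r (KO minus WT) was 0.034 under PBS and 0.13 under ethanol, and Vipr2 under ethanol was 0.12. Without the 3 muscle-rich libraries the averaged Adra2a and Vipr1 were -0.019 and -0.057, Vipr1 and Npy1r under PBS were -0.033 and 0.10, Vipr2 under ethanol was 0.10, and the difference of ethanol effects in Npy1r was -0.24. The cause was not tested.

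The lost calls included Slc6a2 in WT by limma-voom (-1.67), and Slc6a2 and Kcnt1 in WT with only the groups compared (-1.68 and 1.77). Both genes also lost the WT call without the muscle-rich libraries (-1.06 and 1.47). The averaged call of Npy was lost with RLE scaling, with either other filter and without the muscle-rich libraries (-1.09). The averaged Npy1r was called with the muscle covariate (1.18). In WT, 1 of the 8 genes was called by limma-voom, 0 with only the groups compared and 0 without the muscle-rich libraries.

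Genes called in KO, 339 in the fit of the report, were 950 by DESeq2, 1691 with only the groups compared, 880 with the muscle covariate and 1369 without the muscle-rich libraries. In WT they were 229, and 701 by DESeq2, 138 by limma-voom, 3 with only the groups compared, 500 with the covariate and 26 without the muscle-rich libraries, where fewer samples remain. KO against WT gave 1 gene under PBS without the muscle-rich libraries and 13 under ethanol by DESeq2, against 2 in each case, and the difference of ethanol effects gave 1 by DESeq2 and 0 by limma-voom, against 0 by edgeR, where 359 had an unadjusted p under 0.05.

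With each library left out in turn, genes called ran from 58 (without library 3) to 572 (without library 12) in KO, from 33 (without library 10) to 321 (without library 7) in WT and from 1062 to 2150 averaged, and of the 8 genes 2 to 3, 0 to 2 and 3 to 4 were called. Differences that turned sign were Adrb1 in KO (-0.31 to 0.29), in WT (-0.15 to 0.26) and averaged (-0.11 to 0.19), Adra2a in WT (-0.28 to 0.013) and averaged Vipr1 (-0.035 to 0.071). For KO minus WT they were Adrb1 (-0.029 to 0.38), Adra2a (-0.16 to 0.13) and Vipr1 (-0.012 to 0.21) under PBS, and Adrb1 (-0.20 to 0.41), Vipr2 (-0.26 to 0.12) and Npy (-0.087 to 1.29) under ethanol. For the difference of ethanol effects they were Adrb1 (-0.40 to 0.20), Npy (-0.87 to 0.50), Npy1r (-0.24 to 0.66) and Kcnt1 (-0.17 to 0.36).

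No paired analysis was possible because the library numbers 1 to 12 do not repeat between groups. Depth limits Npy and Npy1r, with as few as 4 counts in a library, and Npy1r was not tested with a filter of 1 CPM in 3 libraries. Counting intervals are not given for other genes, and 3 pools a group limit every p-value here.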
